A study of Mus musculus with 9 samples.

Results

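The transcripts of 10 genes of the NRF2 antioxidant pathway were followed in mouse liver: Nfe2l2, Keap1, Nqo1, Gclc, Gclm, Slc7a11, Gsr, Txnrd1, Srxn1 and G6pdx. They were chosen by name as the regulator pair and the classical targets of the pathway, without the glutathione transferases, and all 10 were found among the 32285 genes of the table. Of these, 9 had a mean of at least 10 normalized counts and were among the 12100 genes tested, and Slc7a11 was not. Livers came from Tet-OFF mice, 4 weeks old at the start of dosing, in groups of 3 libraries, namely controls, a Dox group that drank doxycycline and a Tc group that drank tetracycline, both at 2 mg/mL in sweetened water for 7 days. Per the labels all 3 groups received tamoxifen, and per the methods the line combines a transposon-borne CreERT2 under the ubiquitous CAG promoter with a Cre-activated tTA and a tetO-Venus-ires-mCherry reporter, both at Rosa26, so the controls carried these transgenes too, and both drugs switch tTA off. The study describes its libraries as biological replicates, while the labels do not say which mouse gave which library, so p-values measure only the spread between these libraries, which may be technical.

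NRF2, the protein of Nfe2l2, is the transcription factor that cells use against oxidants and electrophiles. KEAP1, an adaptor of a CUL3 ubiquitin ligase, binds NRF2 in the cytoplasm and marks it for degradation. Oxidants and electrophiles modify cysteines of KEAP1, newly made NRF2 then escapes, enters the nucleus, pairs with a small MAF protein and binds antioxidant response elements near its target genes. In liver these targets supply glutathione, thioredoxin reducing power, NADPH and quinone reduction. Since NRF2 is controlled mostly by the stability of the protein, transcript levels of Nfe2l2 do not measure its activity.

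Library 3 of each group lay close to a weighted sum of libraries 1 and 2 of that group, with least squares weights of 58.3% and 42.1% in the controls, 61.3% and 34.6% with Dox, and 62.1% and 36.7% with Tc. Where libraries 1 and 2 were over 2-fold apart, the value of library 3 was intermediate for 501 of 586 control genes, 4139 of 4264 with Dox and 962 of 1022 with Tc. Over all 12100 genes tested, however far apart, it was intermediate for 5562 in the controls, 9446 with Dox and 6132 with Tc, and among the 9 members for 3, 8 and 5. The differences of the members are therefore given with and without libraries 3. Adjusted p-values of fits that hold libraries 3 treat them as independent, also where library 1 or 2 of a group is left out. Recovered reads on genes numbered between 7426136 and 12183041 per library. All 5 hepatocyte markers (Alb, Ttr, Apoa1, Cps1 and Hnf4a) were expressed in every library, and no marker of the other cell types examined was at 0 in every library. In bulk liver, fewer cells of a type and less RNA per cell cannot be told apart.

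None of the 9 tested genes passed both thresholds, a fold change over 2 and an adjusted p under 0.05 in limma, in any comparison, and the same held for DESeq2 and edgeR on recovered reads. The smallest adjusted p was that of Gsr, 1.60-fold higher with Dox than in the controls. The widest gaps between libraries of a group were among the Dox livers. In Dox library 1 the glutathione synthesis genes Gclc and Gclm stood high, and in Dox library 2 Srxn1 and Nqo1 did, each by over 2-fold between these libraries. No member was over 2-fold apart between the first and second library of the controls or of the Tc group.

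**Figure D1:**
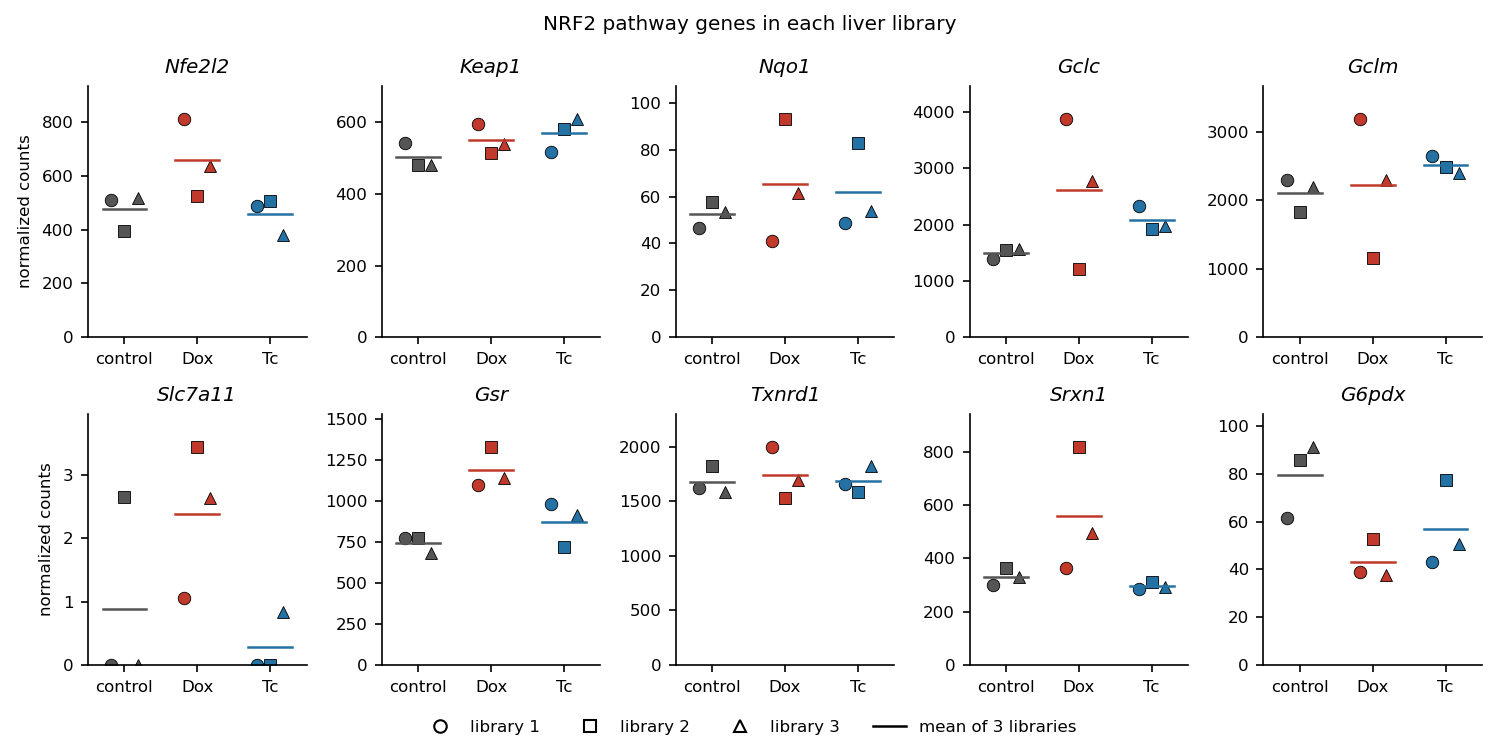
Normalized counts of the 10 NRF2 pathway genes (vertical axes, linear, each from 0) in every liver library of the control, Dox and Tc groups, with circles, squares and triangles for libraries 1, 2 and 3 and a bar for the mean of the 3 libraries. The Dox libraries are spread widely for Gclc, from 1207 to 3878, and for Srxn1, from 365 to 820, while all 3 lie above every control for Gsr and below every control for G6pdx.

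Sequences from 250 bases before to 50 bases after the transcription start were available from RefSeq (build GRCm38.p6) for 8 of the 10 genes, in 10 windows because Txnrd1 has 3 starts. The core letters of the antioxidant response element, TGACNNNGC, were searched on both strands, and the letters of the AP-1 site, TGANTCA, on the plus strand because they read alike on both. The antioxidant core occurred in 5 of the 10 windows, and in 4071 of 32851 windows of all genes, or 12.4%. The 4 windows printed here belong to genes the results turn on, Nfe2l2 and Srxn1 as higher and G6pdx as lower in every Dox library than in any control, and Gclm for its spread within the Dox group, and each reads 5′ to 3′ on the strand of its gene, with the antioxidant core, or its complement where the core lies on the other strand, in capitals. They cover chr2:75704614-75704913 on the minus strand for Nfe2l2, chr3:122245307-122245606 on the plus strand for Gclm, chr2:152105274-152105573 on the plus strand for Srxn1 and chrX:74428831-74429130 on the minus strand for G6pdx. All 4 printed windows hold a core. Nqo1 was also spread over 2-fold within the Dox group, and its window, which holds no core, is not printed.
Nfe2l2: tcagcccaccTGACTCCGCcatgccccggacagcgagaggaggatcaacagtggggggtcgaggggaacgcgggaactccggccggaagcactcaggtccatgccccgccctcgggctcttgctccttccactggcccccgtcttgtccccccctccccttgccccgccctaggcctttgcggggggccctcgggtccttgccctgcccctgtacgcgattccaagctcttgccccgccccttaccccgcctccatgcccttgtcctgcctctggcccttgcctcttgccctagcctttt
Gclm: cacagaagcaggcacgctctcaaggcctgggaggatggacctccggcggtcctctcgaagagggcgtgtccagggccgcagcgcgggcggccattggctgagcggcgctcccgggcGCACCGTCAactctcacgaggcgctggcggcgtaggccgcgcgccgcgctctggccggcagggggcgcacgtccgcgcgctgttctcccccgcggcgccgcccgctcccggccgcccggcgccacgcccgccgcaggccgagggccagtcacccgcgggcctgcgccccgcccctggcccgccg
Srxn1: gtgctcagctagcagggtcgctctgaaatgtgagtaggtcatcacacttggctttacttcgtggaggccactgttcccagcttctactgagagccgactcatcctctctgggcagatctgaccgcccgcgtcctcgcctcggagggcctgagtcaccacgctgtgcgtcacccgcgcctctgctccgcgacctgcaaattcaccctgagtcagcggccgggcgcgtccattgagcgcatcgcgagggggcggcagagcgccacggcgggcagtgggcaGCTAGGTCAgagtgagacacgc
G6pdx: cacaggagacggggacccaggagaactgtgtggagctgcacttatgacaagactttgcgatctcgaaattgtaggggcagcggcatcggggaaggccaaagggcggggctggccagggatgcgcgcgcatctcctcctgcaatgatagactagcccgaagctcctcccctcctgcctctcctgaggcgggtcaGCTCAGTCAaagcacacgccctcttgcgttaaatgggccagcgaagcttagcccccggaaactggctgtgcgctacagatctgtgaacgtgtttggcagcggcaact

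Read on its own strand, the core was TGACTCCGC in Nfe2l2, with its first letter 240 bases before the start, and TGACGGTGC in Gclm, whose leftmost base lay 134 before the start on the other strand. The Srxn1 window held TGACCTAGC on the other strand from base 29 after the start and the letters TGAGTCA at 102 and 45 bases before it, which 7.81% of all windows share. In G6pdx the match was TGACTGAGC on the other strand at 57 bases before the start, and the second start of Txnrd1 had TGACAAAGC on the other strand at 92 before it. The windows of Keap1, Nqo1, Slc7a11 and the other starts of Txnrd1 held neither set of letters. Gclc and Gsr had no window. A match describes letters only, and no match speaks for this window only.

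**Figure D2:**
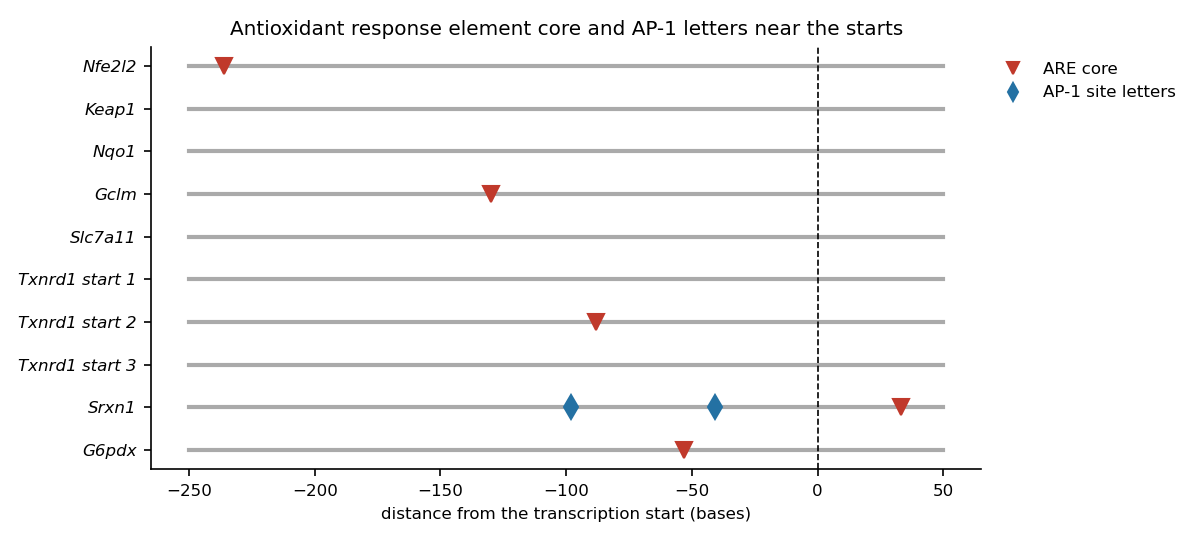
Positions of the antioxidant response element core (triangles) and of the AP-1 letters (diamonds) in the 10 windows, with the distance from the transcription start in bases on the horizontal axis and 1 line per start site. Cores occur in the windows of Nfe2l2, Gclm, Srxn1, G6pdx and the second start of Txnrd1, and Srxn1 holds the only AP-1 matches, at 102 and 45 bases before the start.

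Among the regulators, Nfe2l2 (chr2:75675513-75704641, minus strand) had 511, 395 and 519 normalized counts in control libraries 1 to 3, 812, 523 and 637 with Dox, and 489, 507 and 379 with Tc. All 3 Dox libraries lay above all control and Tc libraries, the lowest Dox library only just above the highest control. The log2 difference between Dox and control was 0.46 (SE 0.20), with an adjusted p of 0.172 in limma, and 0.54 without libraries 3 (adjusted p 0.603 in limma). Scaled to the same total per library, a setting that moves the median of all genes by 0.17 for Dox against control and by 0.16 for Dox against Tc, Nfe2l2 came to 0.63 (adjusted p 0.0492 in limma). Keap1 (chr9:21229730-21239361, minus strand) was the steadiest of the tested genes between the first and second library with Dox. Its normalized counts were 543, 481 and 481 in the controls, 596, 513 and 538 with Dox, and 516, 581 and 610 with Tc. The groups overlapped, and the log2 difference to the controls was 0.13 (SE 0.12) with Dox and 0.18 (SE 0.12) with Tc.

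Glutathione is made by glutamate-cysteine ligase, whose catalytic subunit is encoded by Gclc and whose modifier subunit, which raises the activity of the catalytic one, is encoded by Gclm. Gclc (chr9:77754535-77794485, plus strand) had 1396, 1546 and 1560 normalized counts in the controls, 3878, 1207 and 2769 with Dox, and 2321, 1920 and 1983 with Tc. All Tc libraries were above all controls, whereas the Dox libraries held both the highest and the lowest value of the 9. The log2 difference was 0.65 (SE 0.36) for Dox and 0.46 (SE 0.36) for Tc, with adjusted p of 0.267 and 0.688 in limma. Without Dox library 2, Gclc was 2.19-fold higher with Dox than in the controls (limma adjusted p 0.00408) and passed both thresholds, and without Dox library 1 the log2 difference was 0.29.

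Gclm (chr3:122245557-122270732, plus strand) went the same way within the Dox group. It had 2297, 1824 and 2189 normalized counts in the controls, 3189, 1161 and 2301 with Dox, and 2641, 2491 and 2399 with Tc. Again every Tc library was above every control, by a mean log2 difference of 0.26 (SE 0.32, limma adjusted p 0.821), and the Dox libraries spanned the range of all 9. The log2 difference between Dox and control was -0.04 (SE 0.32), and it turned positive with the same total per library (0.14) and in DESeq2 (0.08).

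Glutathione reductase, which returns oxidized glutathione to its reduced form with NADPH, is encoded by Gsr (chr8:33652523-33698163, plus strand). Control libraries had 777, 773 and 685 normalized counts of Gsr, Dox libraries 1100, 1333 and 1143, and Tc libraries 985, 719 and 918. Every Dox library was above every other library of the 9, and the Tc libraries overlapped the controls. The log2 difference between Dox and control was 0.67 (SE 0.15, 95% interval 0.33 to 1.02) with an adjusted p of 0.0334 in limma, under the fold threshold. Without libraries 3 it was 0.64, with an adjusted p of 0.573 in limma and 0.454 in DESeq2. Leaving out single libraries gave adjusted p between 0.0212 and 0.136, and above 0.05 without any 1 control library, without Dox library 3 or without Tc library 3.

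Slc7a11, which encodes the cystine and glutamate antiporter that brings cystine into cells, was close to the limit of detection. It had 0, 3 and 0 recovered reads in the controls, 1, 3 and 3 with Dox, and 0, 0 and 1 with Tc. No library exceeded 3 reads, so a difference was not detectable at this depth and no fold change is given.

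Thioredoxin reductase 1, encoded by Txnrd1 (chr10:82833951-82897712, plus strand), keeps cytosolic thioredoxin reduced. It had 1624, 1822 and 1589 normalized counts in the controls, 2003, 1526 and 1697 with Dox, and 1661, 1584 and 1828 with Tc. The 3 groups overlapped, with log2 differences of 0.05 (SE 0.14) for Dox and 0.01 (SE 0.14) for Tc against control. The gene Eid3 lies within Txnrd1 on the same strand, at a mean of 9.54 normalized counts.

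Sulfiredoxin, encoded by Srxn1 (chr2:152105516-152111376, plus strand), repairs overoxidized peroxiredoxins. Srxn1 had 302, 364 and 329 normalized counts in the controls, 365, 820 and 497 with Dox, and 285, 312 and 293 with Tc. Dox library 2 stood highest, library 3 between the others, and Dox library 1 only just above the highest control. The log2 difference between Dox and control was 0.68 (SE 0.26, limma adjusted p 0.127), and 0.72 without libraries 3 (limma adjusted p 0.611).

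NAD(P)H quinone dehydrogenase 1, encoded by Nqo1 (chr8:107388225-107403206, minus strand), reduces quinones by transferring a pair of electrons at once and is a common readout of NRF2. Nqo1 was low in these livers, with 46.6, 57.5 and 53.4 normalized counts in the controls, 41.1, 93.2 and 61.6 with Dox, and 48.8, 82.7 and 53.9 with Tc. The second library was the highest in all 3 groups, and the groups overlapped. The log2 difference was 0.24 (SE 0.31) for Dox and 0.20 (SE 0.31) for Tc against control, with adjusted p of 0.642 and 0.863 in limma.

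Glucose-6-phosphate dehydrogenase, encoded by G6pdx (chrX:74409483-74429194, minus strand), makes NADPH at the entry of the pentose phosphate pathway. G6pdx had 61.4, 85.8 and 91.5 normalized counts in the controls, 39.0, 52.9 and 37.8 with Dox, and 43.0, 77.3 and 50.5 with Tc. All Dox libraries were below all controls, and the Tc libraries overlapped both groups. The log2 difference between Dox and control was -0.86 (SE 0.27), with an adjusted p of 0.0800 in limma and 0.0398 in DESeq2, and -0.67 without libraries 3 (limma adjusted p 0.624). Without Dox library 2 it was -1.01 (limma adjusted p 0.0351) and passed both thresholds, with Dox library 3 counted as independent of library 1. G6pdx overlaps Ikbkg, on the opposite strand, at a mean of 709 normalized counts, and the strand setting of the read counting was not given in the sources used here, so reads of Ikbkg in the G6pdx values cannot be told apart.

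Compared per kilobase of exon sequence, with all annotated exons of a gene joined, Gclc had the highest group mean of the 10 transcripts in every group. In the Dox library where Gclc was lowest, at 320 per kb, it lay below every Dox value of Gsr, of which the lowest was 400. In the controls it led with 398 normalized counts per kb, followed by Gclm with 334, Gsr with 271 and Txnrd1 with 237. The ranges of Gsr and Txnrd1 overlapped, while Gclc and Gclm did not overlap their neighbours. The ranges of Nfe2l2 with 125 and Srxn1 with 118 per kb overlapped, as did those of Srxn1 and Keap1 with 107. Nqo1 with 33.8 and G6pdx with 25.8 per kb did not overlap their neighbours, and Slc7a11 was last with 0.0635 per kb. With Dox, Gsr ranked above Gclm (433 against 352 per kb), but the ranges of the 6 highest genes overlapped from neighbour to neighbour.

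Against the controls, 0 of 9 members passed both thresholds with Dox, where 5% of all 12100 genes did in limma, 9.37% in DESeq2, 0% in limma without libraries 3 and 1.19% in DESeq2 without libraries 3. At an unadjusted p under 0.05, limma had 4 of 9 members (Nfe2l2, Gsr, Srxn1 and G6pdx), DESeq2 5 and edgeR 4, beside 3516, 3786 and 3680 of all 12100 genes. Without libraries 3 the numbers of members were 0, 1 and 0, beside 1040, 1267 and 1064 of all genes. Nfe2l2, Gsr and Srxn1 were higher in all Dox libraries than in any control, 3 of 9 against 16.1% of all genes, and G6pdx was lower in all, 1 of 9 against 17.1%. Without libraries 3, limma gave log2 differences of 0.11 for Keap1, 0.25 for Nqo1, 0.56 for Gclc, -0.09 for Gclm and 0.02 for Txnrd1. The median log2 difference of the 9 members was 0.24, and that of all genes tested 0.00. Genes called over the whole table were 138 higher and 467 lower, or 245 higher and 326 lower with the same total per library. The whole-table total of 605 ranged from 33 without control library 3 to 1500 without Dox library 1, and was also over 1.5 times apart without control library 1 (241) or 2 (124), Dox library 2 (1102) or 3 (87) or Tc library 3 (322).

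Tc against the controls gave 0 of 9 members past both thresholds in limma, DESeq2 and edgeR, where the background was 0.165% of genes in limma, 1.58% in DESeq2, 0% in limma without libraries 3 and 0.0744% in DESeq2 without libraries 3. Each of these tests had 0 members at an unadjusted p under 0.05, beside 1412 of all 12100 genes in limma, 1538 in DESeq2 and 1488 in edgeR. Without libraries 3 these were 239 genes in limma and 315 in DESeq2. The limma model took its spread from all 3 groups, and a fit of Tc and control alone called 276 genes and 0 members, with 1 member, Gclc, at an adjusted p of 0.0426 under the fold threshold. Leaving out 1 library, the 20 genes called became 1 to 3 without any 1 control library, Dox library 3, Tc library 1 or Tc library 3, 13 without Tc library 2, 46 without Dox library 1 and 221 without Dox library 2. Gclc and Gclm were higher in all Tc libraries than in any control, 2 of 9 members against 15.8% of genes, and 0 of 9 were lower in all, against 14.9%. For the genes whose Tc difference is not given above, it was -0.05 (SE 0.20) for Nfe2l2, 0.22 (SE 0.15) for Gsr, -0.16 (SE 0.26) for Srxn1 and -0.50 (SE 0.27) for G6pdx on the log2 scale. Without libraries 3, Gclc came to 0.52, Gclm to 0.33 and G6pdx to -0.33, and the other members lay between -0.15 and 0.29. The median log2 difference of the members was 0.18 beside 0.00 for all genes. The comparisons of Dox and of Tc with the controls share the control libraries.

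**Figure D3:**
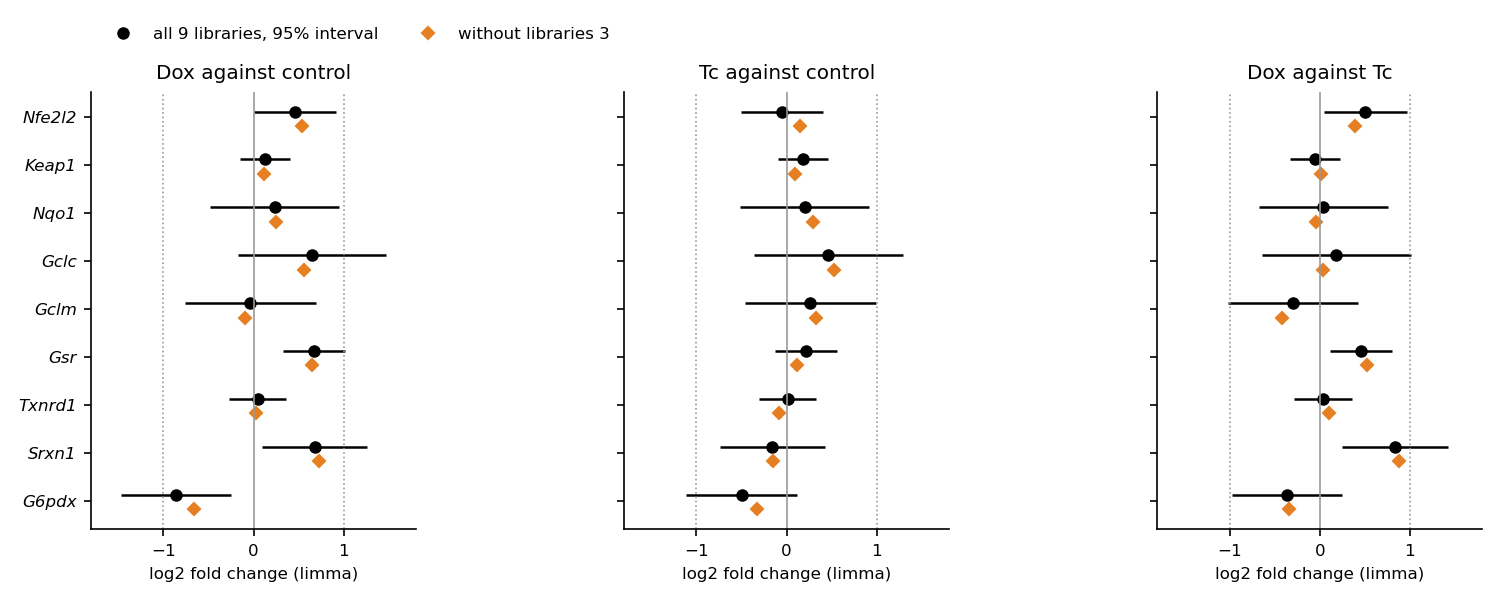
Log2 fold changes (horizontal axes) of the 9 tested members in limma for Dox against control, Tc against control and Dox against Tc, as points with 95% intervals from all 9 libraries and diamonds for the value without libraries 3, with dotted lines at a 2-fold change. Every point lies within the dotted lines. The intervals of Nfe2l2, Gsr, Srxn1 and G6pdx do not reach 0 for Dox against control, and those of Nfe2l2, Gsr and Srxn1 do not for Dox against Tc.

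Dox and Tc share a ring system and differ in the carbon that carries a hydroxyl group, and this pair was compared at the same dose and time. Of the 9 members, 0 passed both thresholds, where 0.215% of genes did in limma, 5.03% in DESeq2, 0% in limma without libraries 3 and 0.264% in DESeq2 without libraries 3. At an unadjusted p under 0.05, limma, DESeq2 and edgeR each had 3 members, Nfe2l2, Gsr and Srxn1, beside 2622, 2979 and 2861 of all 12100 genes. These 3 were higher in all Dox than in any Tc library, against 12.2% of all genes, and 0 of 9 were lower in all, against 12.4%. Srxn1 had the largest difference, 0.84 on the log2 scale (95% interval 0.25 to 1.42, limma adjusted p 0.148). DESeq2 gave it 0.92 with an adjusted p of 0.0283, which was 0.0372 with the replicate number as a block and 0.264 with that block in a fit of Dox and Tc alone, and without libraries 3 limma gave 0.87 with an adjusted p of 0.755. Leaving out Dox library 1 took Srxn1 to 2.15-fold and an adjusted p of 0.0184 in limma, past both thresholds, with Dox library 3 counted as independent of library 2.

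Between the drugs, Nfe2l2 differed by 0.51 (0.05 to 0.96) and Gsr by 0.46 (0.11 to 0.80) on the log2 scale, with limma adjusted p of 0.203 and 0.166, and by 0.39 and 0.53 without libraries 3. The intervals of the remaining members held 0. They ran from -0.33 to 0.23 for Keap1 and from -0.28 to 0.35 for Txnrd1, and were wider for Nqo1 (-0.68 to 0.75), Gclc (-0.64 to 1.01), Gclm (-1.02 to 0.43) and G6pdx (-0.97 to 0.25). Without libraries 3 these 6 genes lay between -0.41 and 0.11. A missed threshold here does not show that the drugs act alike on these genes. The median log2 difference of the members was 0.04, and that of all genes -0.02. The deviations of Dox and Tc libraries from their group means correlated by number, and with the replicate number as a block in a fit of Dox and Tc alone limma had 0 of 9 members past both thresholds and 1, Srxn1, at an unadjusted p under 0.05. Over all genes limma called 5 higher and 21 lower, or 1 higher and 2 lower with the same total per library. It called 2 with the block and 0 in the blocked fit of Dox and Tc alone. Without Dox library 1 it called 718 higher and 644 lower, without Dox library 2 54 and 125, without Tc library 1 6 and 66, and without any other single library 0.

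The first and second Dox libraries, of which library 3 lay close to a weighted sum, differed over 2-fold for 4 of 9 members, or 44.4%, beside 35.2% of all genes tested. Gclc was 3.21-fold and Gclm 2.75-fold higher in Dox library 1, while Nqo1 and Srxn1 were each 2.24-fold higher in Dox library 2. Between the first and second control libraries 4.84% of all genes were that far apart, and between the Tc libraries 8.45%, with 0 of 9 members in either group. Dox library 3 lay between the others for 8 of the 9, all but G6pdx. On the log2 scale relative to the control mean, Gclc was at 1.37 in Dox library 1 and at -0.31 in library 2, and Gclm at 0.61 and -0.85. The order was the opposite for Srxn1, at 0.14 and 1.31, and for Nqo1, at -0.34 and 0.82. Gsr was above the control mean in both, by 0.56 and 0.84, and G6pdx below it in both, at -0.99 and -0.56.

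**Figure D4:**
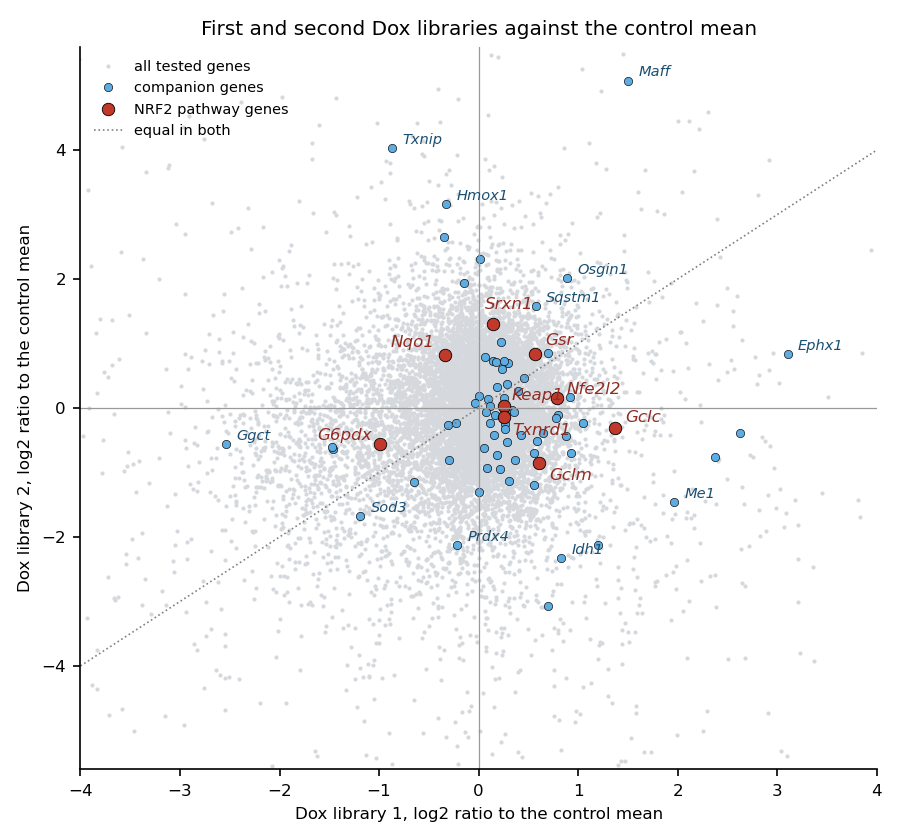
Each gene's log2 ratio to the control mean in Dox library 1 (horizontal axis) and Dox library 2 (vertical axis), with red points for the tested members, blue points for 69 companion genes of the pathway, grey points for all genes tested and a dotted line where both libraries are equal. Genes beyond the axes are not drawn. Gclc and Gclm lie right of the line, Srxn1 and Nqo1 above it, and the companions Txnip, Hmox1 and Maff far above it, while Me1 and Idh1 lie far below.

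The rest of the pathway was read in 7 lists of 72 companion genes, of which 69 were tested. Between the first and second Dox libraries, 30 of the 69 were over 2-fold apart, beside 4264 of all 12100 genes. Library 1 was the higher for 20 of the 30 and library 2 for 10, beside 2127 and 2137 of all genes. The counts by list below come from this 1 pair of libraries, in which genes are not replicates. All 10 tested genes of the NADPH and pentose phosphate list were higher in Dox library 1, 7 of them over 2-fold, with a median log2 difference of 1.23. The member G6pdx, at the entry of this pathway, went the other way, with 39.0 normalized counts in Dox library 1 and 52.9 in library 2. Malic enzyme 1 (Me1), an NADPH source, had 2049 normalized counts in Dox library 1 and 191 in library 2, with controls between 437 and 598. Of the thioredoxin and peroxiredoxin list, 9 of 11 were higher in Dox library 1. The exception of largest size was Txnip, the thioredoxin inhibitor, with 719 normalized counts in Dox library 1 and 21481 in library 2, a 29.8-fold gap. In the list of NRF2 partners only 2 of 12 were higher in Dox library 1, and Maff, a small MAF partner, had 55.8 there and 679 in library 2. Heme oxygenase 1 (Hmox1), which degrades heme and is also a target of BACH1, had 185 and 2083, while 5 of its list of 8 heme and iron genes were higher in library 1. So were 5 of 5 superoxide and peroxide enzymes, 6 of 12 detoxification genes and 5 of 11 genes of glutathione synthesis and use.

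Against the controls, 5 of 69 companions passed both thresholds with Dox in limma, beside 5% of all genes. Maff was 11.0-fold higher (log2 SE 0.75, adjusted p 0.0299), Sqstm1, whose protein p62 competes with NRF2 for KEAP1, 2.07-fold (adjusted p 0.0363), Ephx1, a microsomal epoxide hydrolase, 4.51-fold (adjusted p 0.0490) and Osgin1, an oxidative stress induced growth inhibitor, 2.67-fold (adjusted p 0.0267). Sod3, the extracellular superoxide dismutase, had 704, 602 and 615 normalized counts in the controls and 280, 199 and 252 with Dox, 2.64-fold lower (adjusted p 0.00503). Ephx1 had 501, 978 and 739 normalized counts in the controls and 6141, 1279 and 4226 with Dox, and was 7.14-fold higher without Dox library 2. Maff was 6.30-fold higher without Dox library 2 and 21.8-fold higher without Dox library 1, and Sqstm1 was under the fold threshold without Dox library 2, at 1.72-fold. Without libraries 3, limma called 0 of the 69 (5 at an unadjusted p under 0.05), edgeR 0, and DESeq2 called 2, Maff (adjusted p 0.00977) and Sod3 (adjusted p 0.00502). Of all 12100 genes these 3 fits called 0, 0 and 144, with 1040 at an unadjusted p under 0.05 in limma. Leaving out any 1 control library, Dox library 3 or Tc library 3 left 1 of the 69 called in limma, Sod3. Biliverdin reductase B (Blvrb) was 1.63-fold higher, with an adjusted p of 0.0203 in limma (0.559 without libraries 3) and a fold under the threshold.

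By list, 2 of 12 partners and regulators of NRF2 and 2 of 12 detoxification genes rose with Dox in limma, 1 of 5 superoxide and peroxide enzymes fell, and 0 of 11 glutathione, 0 of 11 thioredoxin, 0 of 10 NADPH and 0 of 8 heme and iron genes passed in either direction. At an unadjusted p under 0.05 limma had 5, 3, 0 and 2 genes in these last 4 lists, where 3516 of all 12100 genes were under it, and without libraries 3 DESeq2 called 0 in each. Their genes with the largest log2 differences were Ggct (-1.63, adjusted p 0.0612), which encodes gamma-glutamylcyclotransferase, and Txnip (1.92, adjusted p 0.238). The median log2 differences of the lists lay between -0.26 for glutathione synthesis and use and 0.56 for detoxification. With Tc, 0 of 69 companions passed both thresholds in limma, beside 0.165% of all genes, and 9 had an unadjusted p under 0.05, beside 1412 of all 12100 genes. In DESeq2 2 of the 69 passed both, beside 1.58% of all genes, and in edgeR 0, beside 21 genes. Some named genes lay apart from the controls in every Tc library. Ggct had 22.5 to 30.6 normalized counts against 109 to 201, Ephx1 1571 to 3357 against 501 to 978, and Maff 40.5 to 48.8 against 14.2 to 27.5. Sod3 had 473 to 510 against 602 to 704, and Txnip 671 to 888 against 1280 to 1337. Sqstm1, Osgin1, Me1 and Hmox1 overlapped the controls. Of all genes tested, 15.8% were higher in all Tc libraries and 14.9% lower. For Dox against Tc, limma called 1 of 69, beside 0.215% of all genes. This was Sod3, 2.04-fold lower (limma adjusted p 0.0498), and with the replicate number as a block it was not called (limma adjusted p 0.379). With 1 library left out, Sod3 passed both thresholds there only without Dox library 1.

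**Figure D5:**
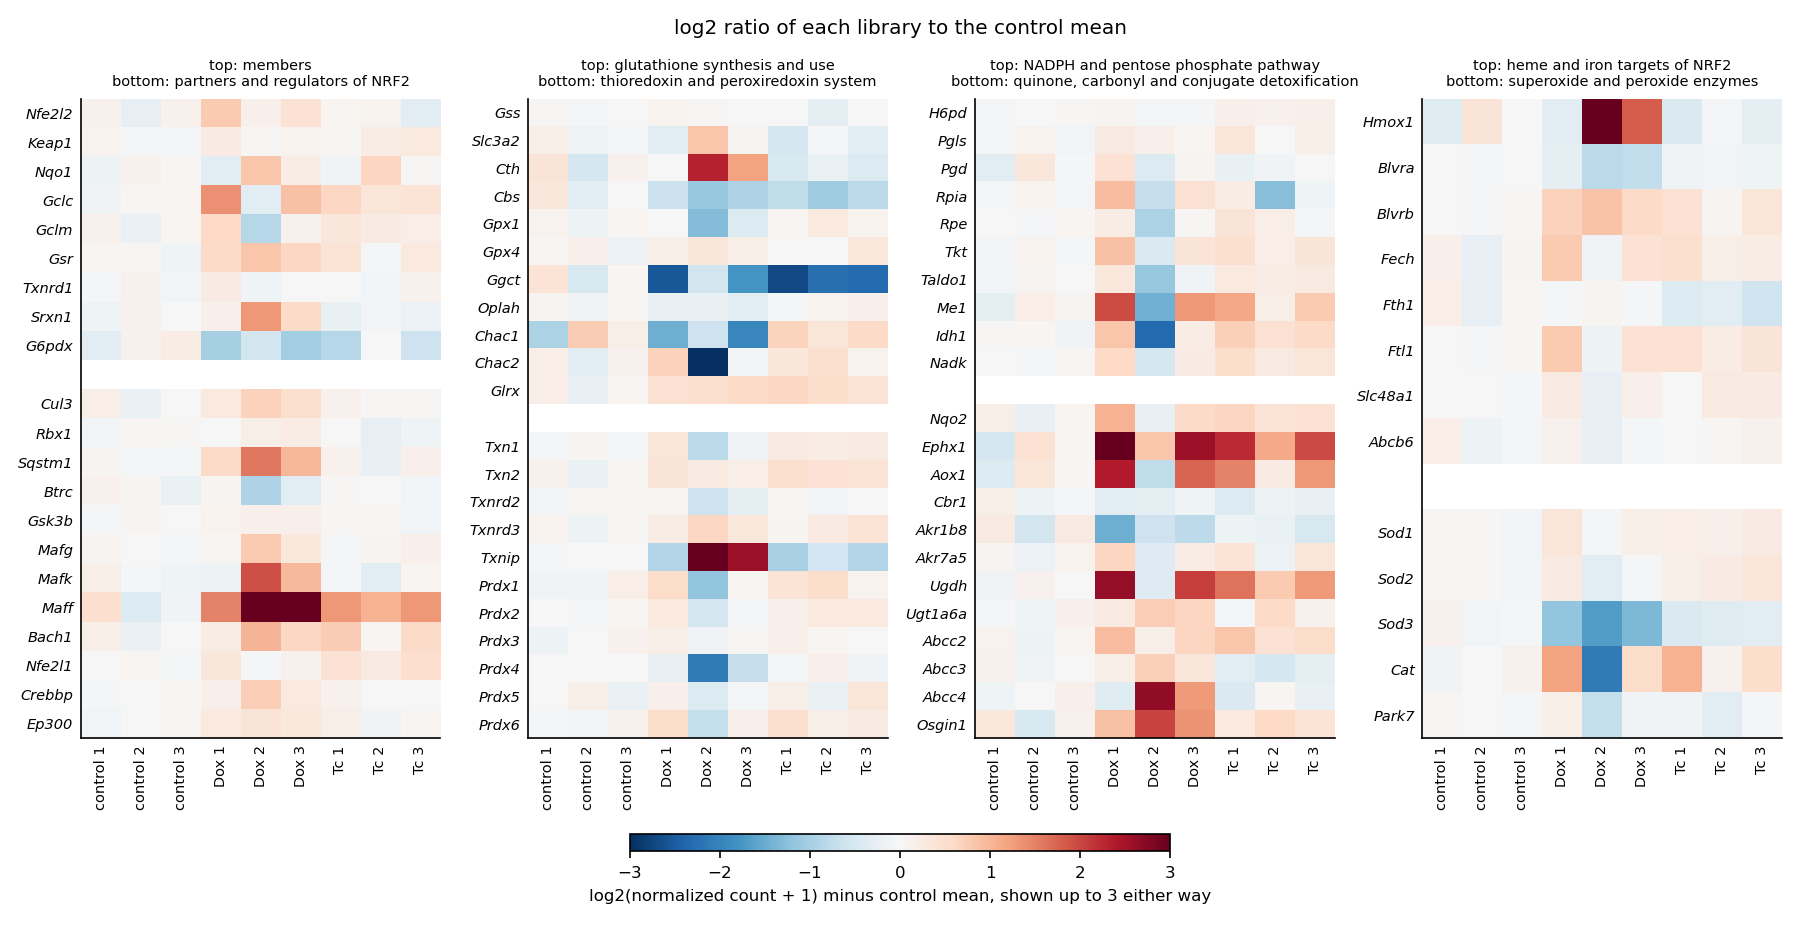
Log2 ratio of each library to the control mean, on log2(normalized count + 1), for the 9 tested members and the 69 tested companion genes in their 7 lists, with 1 column per library and colours from blue (lower) to red (higher), shown up to 3 either way. Dox 1 and Dox 2 carry opposite colours for Gclc, Gclm, Me1 and Idh1 (red in Dox 1) and for Nqo1, Hmox1 and Txnip (red in Dox 2), and Maff is red in all Dox libraries.

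Cell type markers moved beside these values. The summed level of 5 Kupffer cell markers was 5695 to 9403 normalized counts in the controls, 1571 to 3770 with Dox and 2678 to 5476 with Tc, and with Dox 2 of the 5 passed both limma thresholds, lower. The 5 sinusoidal endothelial markers summed to 4004 to 4126, 1925 to 2455 and 2960 to 3498, with 1 of 5 lower, and 3 of 5 erythroid markers were lower with Dox. The erythroid sums were widely spread, at 1477 to 5962 in the controls, 761 to 2489 with Dox and 1311 to 2122 with Tc. Alas2, also on the erythroid list, had a higher mean with Dox (747) than in the controls (225). Its Dox libraries 1 to 3 had 1368, 46.0 and 828. The 5 hepatocyte markers summed to 1094020 to 1555500 in the controls, 431965 to 780232 with Dox and 759507 to 1206260 with Tc. With Dox, 0 of 5 passed both thresholds. Alb made up most of this sum, with a mean of 1203880 in the controls and 439798 with Dox. Cps1 (53676 and 90059) and Hnf4a (10350 and 14049) had higher means with Dox, and Ttr (34892 and 33083) and Apoa1 (44457 and 34763) lower ones. Of the cholangiocyte markers, 3 of 5 were tested and 1 was higher with Dox, while 0 of 5 stellate and 0 of 3 tested neutrophil markers passed both thresholds. None of the lymphocyte markers reached the level for testing. Without libraries 3, limma called 0 of 12100 genes and so 0 of these markers. Their part in the member values was not tested.

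The genes most like Nfe2l2 over the 9 libraries, by Pearson correlation of log2(normalized count + 1), were Pcnp (0.96), Adnp (0.96) and Zfp958 (0.94), and over the 6 libraries without libraries 3 these correlations were 0.95, 0.96 and 0.91. For Nqo1 they were Chpf, Tgm2 and Galnt7, with 0.97, 0.96 and 0.96 over 9 libraries and 0.99, 0.99 and 0.98 over 6. These are the highest correlations among all genes tested, over libraries that share their groups and depth, and describe the likeness only. Tgm2, like Nqo1, had its highest value of each group in the second library, 1791 in the controls, 3381 with Dox and 2540 with Tc.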

How the data were processed

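Liver RNA libraries were made with a directional kit and sequenced from single ends. Per the labels and the submitters' processing notes, reads were trimmed with cutadapt, aligned to mm10 with STAR, counted per gene with HTSeq 2.0.5 against a GENCODE annotation and normalized with DESeq2 1.42.0. The deposited signal is a normalized count per gene and library, for which the authors divided each read count by the size factor of its library.

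Log2(normalized count + 1) was tested with limma 3.58.1 in R 4.3.3 (trend, 1 model of all 9 libraries, Benjamini-Hochberg adjustment over 12100 genes, those whose mean was 10 or more). A gene was called at a fold change over 2 and an adjusted p under 0.05. A fold change on this scale understates changes of low genes. For 100% of values a whole number of reads came back, within 0.01 of a read, and these reads entered edgeR 4.0.16 and DESeq2 1.42.0 for comparison. The scripts were tested on simulated data. Libraries 1 and 2 were fitted to library 3 of each group by least squares.

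Deviations from the group means correlated between Dox and Tc libraries of the same number (r across genes 0.29, 0.32 and 0.18), and those of the controls with Dox (-0.05, -0.04 and 0.06) or with Tc (0.01, -0.05 and -0.08) did not. Deviations cancel within a group and library 3 lay close to a weighted sum of the others, so the r values of a pair of groups are not independent. They cannot establish a pairing. The pairing rests on the numbers in the sample titles, and Dox and Tc were therefore also fitted with the number as a block. Alternatives covered the pseudocount, filter, scaling, test, weights, thresholds, the block and left-out libraries. Fits of Dox and Tc alone with the block, and edgeR without libraries 3, were added after the data were seen.

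Members, companion lists and markers were chosen with earlier results of these data known. The text names all 10 members. From each companion list it names at most 4 called genes, or, where none was called, genes out of the 2 with a mean of at least 50 and the largest change with Dox, and for Nfe2l2 and Nqo1 the 3 genes most like each. Coordinates are those of GRCm38 from GENCODE, and promoter sequences come from RefSeq. Symbols were matched for 32158 of 32285 identifiers.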

Additional observations from a re-analysis of the deposited data

How the results depend on the processing

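Members called numbered 0 in each comparison under the alternatives, except that array weights (G6pdx) and no fold limit (Gsr) each gave 1 for Dox against control, and that leaving out 1 library gave 0 to 2 for Dox against control (2, Gclc and G6pdx, without Dox library 2) and 0 to 1 for Dox against Tc (1, Srxn1, without Dox library 1). The companion counts depended on the processing, and the cause was not tested. For Dox against control, 5 in limma became 12 in DESeq2, 1 with only the 2 groups, 14 with array weights, 9 with unadjusted p, 10 in DESeq2 with a replicate block, 0 in limma and edgeR and 2 in DESeq2 without libraries 3. Over all 12100 genes, 605 in limma became 1134 in DESeq2, 333 with only the 2 groups and 1555 with array weights. With unadjusted p they became 1242, in DESeq2 with a replicate block 979, and without libraries 3 they were 0, 0 and 144. With the replicate block, where control numbers share only a number, limma called 1 companion and 557 of all genes. Leaving out 1 library gave 1 to 12, with 1 without control library 1, 2 or 3, Dox library 3 or Tc library 3, 3 without Tc library 1, 12 without Dox library 1 and 9 without Dox library 2. For Tc against control, 0 became 2 in DESeq2, with unadjusted p and in DESeq2 with a replicate block, 4 with only the 2 groups, 5 with array weights, and 0 to 3 with 1 library left out (1 without Dox library 1, 3 without Dox library 2). All-gene calls there went from 20 in limma to 191 in DESeq2, 389 with unadjusted p and 213 in DESeq2 with a replicate block. They were 276 with only the 2 groups and 737 with array weights. For Dox against Tc, 1 became 9 in DESeq2 and with unadjusted p, 6 with array weights, 8 in DESeq2 with a replicate block, 5 in the same fit of Dox and Tc alone, and 0 with the other pseudocounts (0.1 and 8), no filter, a mean of at least 50, the same total, edgeR, only the 2 groups, either replicate block in limma, and without libraries 3 in all 3 tools. Leaving out 1 library gave 0 to 12 there, 12 without Dox library 1. Among members and companions, the replicate block changed no other limma call of Dox against Tc. Over all genes, limma calls there went from 26 to 2 with the block and 0 with it in the fit of Dox and Tc alone, and DESeq2 calls from 609 to 466 and 243. Unadjusted p gave 789 of all genes there, and array weights 1071.

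Some differences changed sign, and none of these was past both thresholds. Not all were near 0. For Dox against Tc, Gclc reached 0.66 without Dox library 2, and Gclm -0.62 without Dox library 1. Without libraries 3, Nfe2l2 for Tc against control became 0.15 in limma, 0.14 in DESeq2 and 0.13 in edgeR, Keap1 for Dox against Tc 0.015, 0.016 and 0.0021, Txnrd1 for Tc against control -0.085, -0.087 and -0.096, and Nqo1 for Dox against Tc -0.037 in limma. With the same total per library, Keap1 for Dox against Tc became 0.12 and Gclm for Dox against control 0.14. Gclm for Dox against control was 0.076 in DESeq2, 0.063 in edgeR, 0.10 with array weights, 0.0037 in DESeq2 with a replicate block, and 0.078 (DESeq2) and 0.058 (edgeR) without libraries 3. Txnrd1 was -0.0015 for Tc against control in edgeR and -0.064 for Dox against Tc with array weights. With 1 library left out, ranges crossing 0 were, for Dox against control, -0.055 to 0.53 (Nqo1), -0.36 to 0.37 (Gclm) and -0.058 to 0.14 (Txnrd1). For Tc against control they were -0.18 to 0.080 (Nfe2l2), -0.027 to 0.35 (Nqo1) and -0.046 to 0.071 (Txnrd1), and for Dox against Tc -0.12 to 0.0021 (Keap1), -0.25 to 0.33 (Nqo1), -0.18 to 0.66 (Gclc), -0.62 to 0.11 (Gclm) and -0.069 to 0.13 (Txnrd1). Of the genes over 2-fold apart between libraries 1 and 2 and with a mean of at least 50, library 3 lay between them for 97.1% in the controls, 99.5% with Dox and 99.0% with Tc, and of genes over 3-fold apart for 91.2%, 98.5% and 97.5%. Depth limited Slc7a11, at 0 to 3 reads, and Nqo1 and G6pdx, at 37 to 97 reads per library.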
